A study of Mus musculus with 26 samples.

Results

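The constant region genes of the immunoglobulin chains were examined with the 2 further genes that carry polymeric IgA to the gut lumen, in bulk RNA-seq of mouse colon. The 10 genes were taken as a list of names, by summing the estimated counts of all transcripts of each gene, out of 35975 genes in all. They are the heavy chain genes *Igha* (IgA), *Ighm* (IgM), *Ighd* (IgD), *Ighg1*, *Ighg2b*, *Ighg2c* and *Ighg3* (the IgG subclasses), the κ light chain gene *Igkc*, *Jchain* (the joining chain) and *Pigr* (the polymeric immunoglobulin receptor). All 10 were found and all 10 passed the filter on low counts, which left 17063 genes.

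A B cell first makes IgM and IgD from 1 transcription unit, and class switching then moves its variable region next to a downstream constant gene. Plasma cells of the gut lamina propria make mostly IgA, and the J chain joins IgA and IgM into polymers. PIGR on the base of the epithelial cell binds these polymers, carries them across the cell and releases them into the lumen as secretory antibody, whereas IgG is not a ligand of PIGR. Each heavy chain gene gives a secreted form, the antibody, and a membrane form, which sits in the B cell receptor.

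The 26 samples came from wild-type C57BL/6J male mice of a starting age of about 10 weeks, on a standard diet (STD) or on food with GW3965, a synthetic agonist of the liver X receptor (LXR). At days 22, 43 and 70 after 10 mg per kg azoxymethane (AOM, a carcinogen), followed by cycles of dextran sulfate sodium (DSS, which injures the colonic epithelium) in the drinking water, 3 samples per diet were taken. Mice given neither agent served as day 0, with 4 samples for either diet, of which 2 followed 22 days and 2 followed 43 days of feeding. Tissue was distal colon, and in the late samples the tumour-bearing area. Within a diet, days 22 and 43 shared 1 cage and day 0 another, whereas no cage was shared among the day 70 samples, so cage cannot be told apart from diet at days 0, 22 and 43, nor from time in the comparisons of days 22 and 43 with day 0. The study's own descriptions differ on whether a sample is 1 mouse or a pool, and p-values measure only the spread between these samples, which may be technical.

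Total counts ranged from 18195345 to 41522204 per sample, and the heavy chain genes together took between about 5293 and about 239500 estimated counts. Some libraries stood apart. The RNA integrity number (RIN) was 2.6 in STD day 43 replicate 1, which also held the highest total, and 6.8 to 9.3 in the other day 43 samples. Ribosomal protein genes took 9.95% to 18.5% of the counts at day 43 and 3.92% to 10.6% elsewhere. The GW3965 day 0 sample of 43 diet days, replicate 2, is labelled with both diets and was grouped by its title. Epithelium markers were present in every sample, with *Epcam* at 436 CPM or more (CPM are counts scaled to a common library total after TMM normalization). Markers of stratified (squamous) epithelium, which colon lacks, summed to at most 50.7 CPM at days 0 and 22. They summed to 183 to 4169 CPM at day 43 and 3322 to 18620 CPM at day 70, except 21.4 CPM in GW3965 day 70 replicate 2. The part of this tissue in the results below was not tested.

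The 7 heavy chain genes lie on the minus strand of chr12 of GRCm38, from *Ighm* at chr12:113418558-113422730 through *Ighd* at chr12:113406604-113416324 and the IgG genes to *Igha* at chr12:113254830-113260236. *Igkc* lies at chr6:70726435-70726966 (plus strand), *Jchain* at chr5:88519809-88527891 (minus strand) and *Pigr* at chr1:130826684-130852249 (plus strand). The annotation gives 1 secreted and 1 membrane transcript for each heavy chain gene, which share their first exons and differ at the 3′ end of the coding sequence. The ends for IgM and IgA are shown because the shares of the forms below rest on them, read from the GENCODE vM21 transcripts of GRCm38, 5′ to 3′, with the last 30 shared bases in lower case and the coding bases found in that form alone in capitals.
Ighm secreted: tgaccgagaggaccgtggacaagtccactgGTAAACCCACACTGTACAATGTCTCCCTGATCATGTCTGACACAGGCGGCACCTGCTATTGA
Ighm membrane: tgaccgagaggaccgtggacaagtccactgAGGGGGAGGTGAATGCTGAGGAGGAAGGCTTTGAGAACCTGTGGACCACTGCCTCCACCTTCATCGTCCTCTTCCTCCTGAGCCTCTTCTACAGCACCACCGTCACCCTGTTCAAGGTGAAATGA
Igha secreted: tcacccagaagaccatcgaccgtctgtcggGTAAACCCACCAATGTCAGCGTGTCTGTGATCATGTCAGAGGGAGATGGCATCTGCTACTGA
Igha membrane: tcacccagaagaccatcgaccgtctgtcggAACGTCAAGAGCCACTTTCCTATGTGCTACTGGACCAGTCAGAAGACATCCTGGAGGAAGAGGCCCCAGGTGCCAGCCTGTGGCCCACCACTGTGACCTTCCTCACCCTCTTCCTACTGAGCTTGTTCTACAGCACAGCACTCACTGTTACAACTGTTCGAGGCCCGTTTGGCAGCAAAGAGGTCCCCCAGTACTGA
Ighg2b secreted: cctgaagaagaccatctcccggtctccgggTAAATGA
The secreted IgM and IgA ends hold 62 bases of their own and encode the tailpiece to which the J chain binds. The secreted *Ighg2b* end, shown for contrast, has 7 own coding bases and no tailpiece. The membrane ends hold 125 coding bases of their own in *Ighm*, from exons within chr12:113418558-113419068, and 197 in *Igha*, from chr12:113254830-113256397. They encode the transmembrane segment and cytoplasmic tail.

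*Igha* was the most abundant heavy chain gene in each of the 26 samples. On the length-corrected TPM scale, which gives transcripts rather than reads as parts of a fixed total, the medians over all samples were 5346 for *Igkc*, 2220 for *Igha*, 895 for *Jchain*, 468 for *Pigr*, 146 for *Ighg2b* and 113 for *Ighm*. The other 4 heavy chain genes had medians of 9.63 to 29.7 TPM. In CPM, *Igha* ranged over the samples from 207 to 7994, *Jchain* from 72.7 to 14522 and *Ighg1* from 0.0471 to 671. *Pigr* had the narrowest range as a ratio of highest to lowest, 437 to 4196 CPM.

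**Figure D1:**
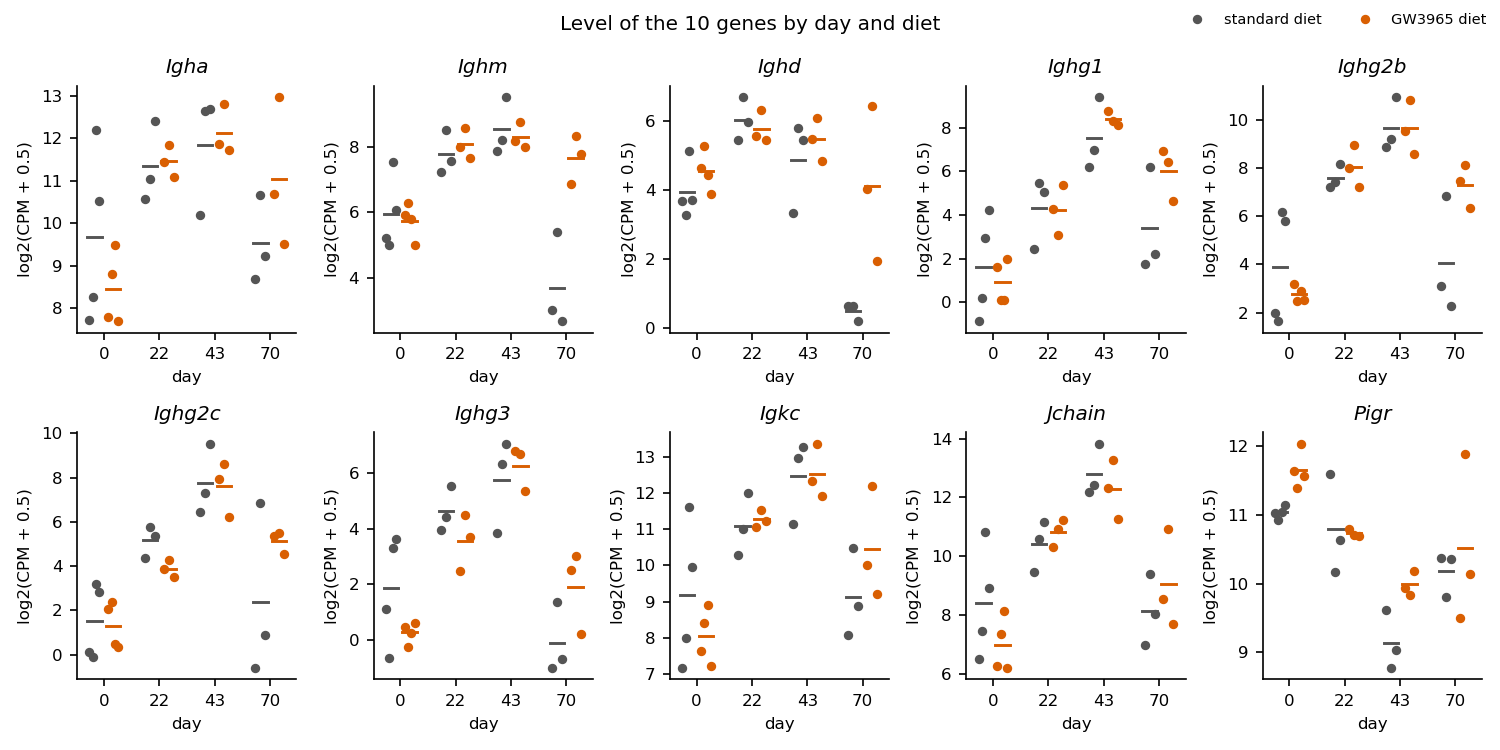
Level of each of the 10 genes as log2(CPM + 0.5) on the y axis against day on the x axis, with 1 point per sample, standard diet in grey, GW3965 diet in orange and bars at the group means. Most antibody genes have their highest mean at day 43, and at day 70 the 3 standard diet samples lie below all GW3965 samples for *Ighm* and *Ighd*.

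The question of the diet comparison is how the antibody genes of the colon differ under LXR activation before and during AOM–DSS. At day 70, *Ighd* and *Ighm*, the isotypes of B cells that have not switched class, were higher under GW3965. *Ighm* was at 7.52, 41.5 and 5.83 CPM in the standard diet samples (replicates 1 to 3) and at 116, 323 and 219 CPM in the GW3965 samples. The lowest GW3965 sample was above the highest standard diet sample. The log2 fold change was 3.89 ± 0.75 (SE; edgeR quasi-likelihood F-test with Benjamini-Hochberg adjustment over all genes, adjusted p = 0.0187, n = 3 and 3). *Ighd* was at 1.05, 1.04 and 0.634 CPM on the standard diet and at 15.8, 84.4 and 3.29 CPM on GW3965. Its groups did not overlap either, although the GW3965 samples spread widely, and its log2 fold change was 5.33 ± 0.99 (edgeR adjusted p = 0.0182). These were 2 of the 10 genes, where 1.83% of all genes tested were called, and 1.75% in this direction. Groups without overlap in this direction held 10.5% of all genes. Both calls were lost when STD day 70 replicate 1 or replicate 3 was left out (edgeR adjusted p 0.109 to 0.157). They were also lost when only these 6 samples were fitted and the ribosomal term was dropped with them (edgeR adjusted p = 0.409 for either gene). Without STD day 70 replicate 2 *Ighm* alone was called. Over the 6 fits that left out 1 sample, the log2 fold change was 3.45 to 5.18 for *Ighm* and 3.48 to 5.94 for *Ighd*.

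The other 8 genes gave log2 fold changes above 0 in the same comparison without passing the test. That of *Ighg2c* turned to -0.10 without the ribosomal term and to -0.086 with that term dropped and only the 2 groups in the fit. It was -0.087 without replicate 1 of the standard diet, but 6.02 without replicate 2 of that diet (114 CPM beside 0.158 and 1.35 CPM in the others). That of *Pigr* turned to -0.38 without replicate 2 of GW3965. *Igha* was at 413, 1631 and 606 CPM on the standard diet and at 1644, 7994 and 729 CPM on GW3965, and the groups overlapped (log2 fold change 2.18 ± 1.05, edgeR adjusted p = 0.27). Replicate 2 of the GW3965 group, the sample with almost no stratified epithelium markers, held the highest value, and without it the log2 fold change was 0.64. *Igkc* (1.89 ± 0.97) and *Jchain* (1.89 ± 0.94) gave fold changes close to that of *Igha*. Among the IgG genes, *Ighg3* was at 2.85 ± 1.29, *Ighg2b* at 2.63 ± 1.16, *Ighg1* at 2.20 ± 1.34 and *Ighg2c* at 0.62 ± 1.33. The median over the 10 genes was 2.19, beside 0.02 over all genes.

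B cell markers differed in the same direction as *Ighm* and *Ighd* at day 70. All 10 passed the test as higher under GW3965, with a median of 4.36, among them *Cr2* (complement receptor 2, 7.00), *Pax5* (the B lineage transcription factor, 6.74) and *Cd22* (4.52). Their summed level was 6.20 to 13.6 CPM on the standard diet and 26.03 to 476 CPM on GW3965. By sample *Ighm* did not follow that sum. The lowest GW3965 sum was in replicate 3, where *Ighm* was at 219 CPM, against 116 CPM in replicate 1. The membrane form was 20.1%, 36.9% and 4.48% of *Ighm* in GW3965 replicates 1 to 3, so most of it was the secreted form. *Cr2* was at 0 in 1 standard diet sample. *Fcmr*, the Fc receptor for IgM (5.34), and *Tnfrsf13c*, the BAFF receptor (4.99), were also higher. In bulk tissue, fewer cells of a type and less RNA per cell cannot be told apart. Of 16 plasma cell genes edgeR called 2 higher (*Prdm1*, the plasma cell transcription factor, 1.17, and *Slamf7*, 2.45) and DESeq2 4, with a median of 0.65 over the list. Of the 11 genes listed for the homing of IgA cells, 3 were higher by edgeR (*Cxcl12* 2.07, *Cxcr4* 1.79 and *Ccr6* 3.99) and 5 by DESeq2. EdgeR did not call *Ccr10* (1.70 ± 0.80), the receptor of IgA plasma cells for mucosal chemokines, or the chemokine *Ccl28* (0.40 ± 0.47). T cell markers had 2 of 7 called higher by edgeR and 5 by DESeq2, and myeloid markers 1 of 7 by edgeR and 4 by DESeq2. Of the epithelium, goblet cell, smooth muscle and stratified epithelium markers edgeR called 0, with 1, 1, 2 and 0 at an unadjusted p under 0.05 and 0, 1, 1 and 0 by DESeq2. Their medians were -0.61, -0.65, 0.92 and 0.71, and the summed stratified epithelium level was 3322 to 4695 CPM on the standard diet and 21.4 to 18620 CPM on GW3965.

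Before AOM–DSS, GW3965 samples held less antibody RNA than standard diet samples on average, but no member was called. *Igha* at day 0 was at 210 and 307 CPM after 22 days and at 4694 and 1480 CPM after 43 days of the standard diet. On GW3965 it was at 223 and 448 CPM after 22 days and at 721 and 207 CPM after 43 days. The standard diet samples of 43 days stood above the other 6, and the groups overlapped. The log2 fold change was -2.06 ± 0.87 for *Igha*, -1.93 ± 0.80 for *Igkc* and -2.10 ± 0.78 for *Jchain* (edgeR adjusted p = 1 for each). At an unadjusted p under 0.05 there were 5 of 10, where 1.94% of all genes passed, and 0.0293% of all genes were called by edgeR. DESeq2 called 0 members. In a fit that kept the diet days apart, the diet effect on *Igha* was 0.38 ± 0.99 at 22 days and -2.75 ± 1.06 at 43 days, and the difference of -3.13 ± 1.43 did not pass the test (edgeR adjusted p = 0.755). *Pigr* and *Ighd* went the other way at day 0, with *Ighd* at a log2 fold change of 0.52 ± 0.67 and overlapping groups. *Pigr* was at 1949 to 2264 CPM on the standard diet and 2681 to 4196 CPM on GW3965 without overlap (log2 fold change 0.66 ± 0.36, edgeR adjusted p = 1). *Pigr* was the 1 member without overlap, where 1.3% of all genes were higher without overlap.

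At day 22 edgeR called 0 members for diet, with 0 at an unadjusted p under 0.05 (9.96% of all genes) and 0 by DESeq2, where 0.135% of all genes were called. The log2 fold changes ran from -1.44 to 0.50. *Ighg2c* was at 20.0, 54.1 and 40.4 CPM on the standard diet and at 14.1, 18.5 and 10.8 CPM on GW3965, the 1 member without overlap, where 11.5% of all genes were lower in this way. At day 43 edgeR also called 0 members (0.0293% of all genes), with 0 at an unadjusted p under 0.05 (8.64% of all genes) and 0 by DESeq2. *Pigr* was the 1 member without overlap there (6.73% of all genes were higher in this way), at 437 to 782 CPM on the standard diet and 912 to 1166 CPM on GW3965.

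**Figure D2:**
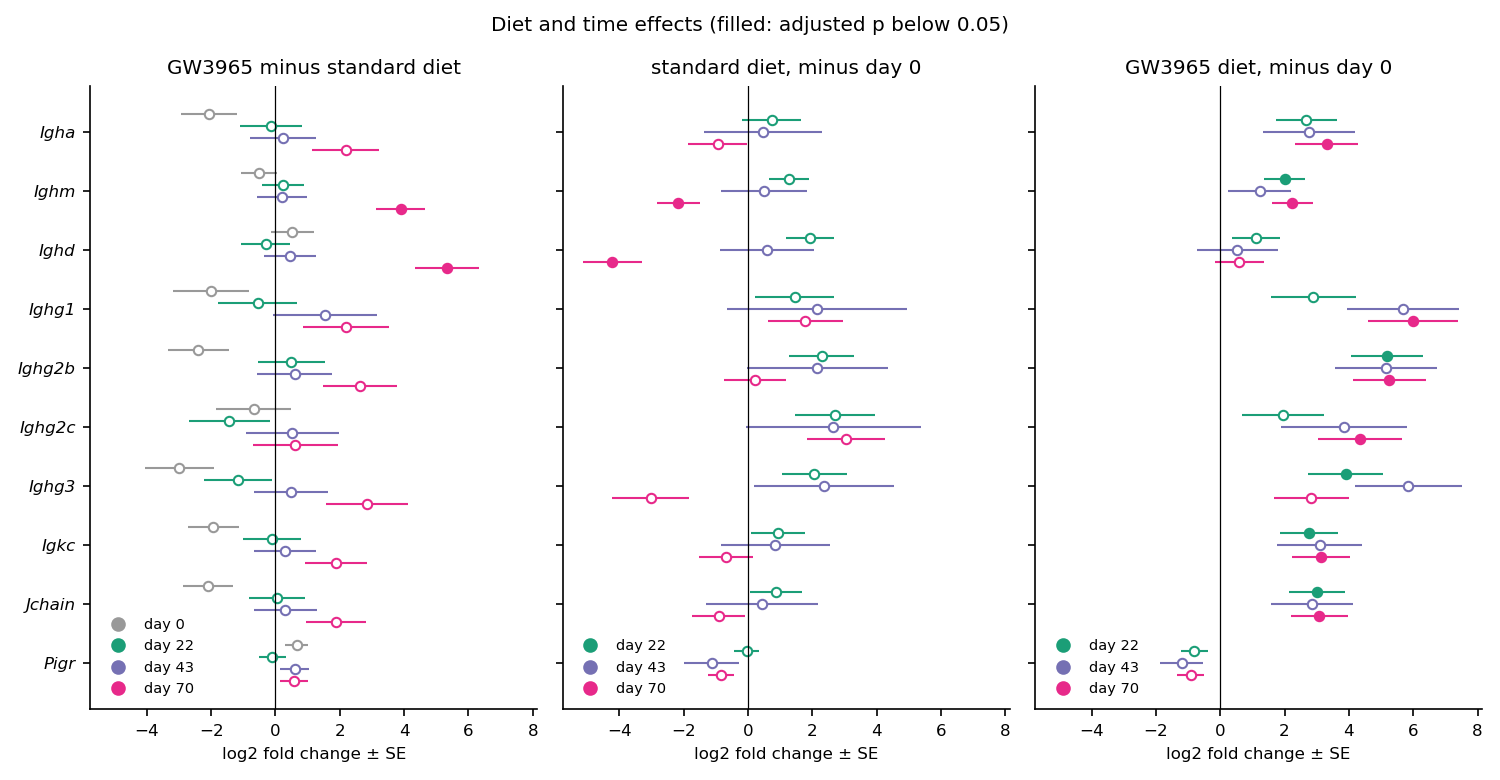
Log2 fold change (x axis) with its SE for each of the 10 genes (y axis), for GW3965 minus standard diet at each day and for each day minus day 0 within each diet, coloured by day. Filled points passed an adjusted p of 0.05 by edgeR, which held for *Ighm* and *Ighd* in the diet comparison of day 70, for the same pair below 0 on the standard diet at day 70, and for 5 and 7 genes above 0 on GW3965 at days 22 and 70.

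The time comparisons ask how the antibody genes change during AOM–DSS within a diet, and the 3 comparisons of a diet share its day 0 samples, which came from another cage than days 22 and 43. On the GW3965 diet, mean antibody RNA was higher at each later day than at day 0. At day 22, 5 of the 10 genes rose (12.6% of all genes were called, and 9.13% as higher). *Ighg2b* was at 5.15 to 8.55 CPM at day 0 and at 256, 497 and 149 CPM at day 22, a log2 fold change of 5.18 ± 1.11 (edgeR adjusted p = 0.00462). *Ighg3* rose by 3.90 ± 1.16 (SE), *Jchain* by 3.01 ± 0.87, *Igkc* by 2.76 ± 0.89 and *Ighm* by 2.01 ± 0.64 (edgeR adjusted p 0.0264 to 0.0459). *Igha* was at 207 to 721 CPM at day 0 and at 2772, 3685 and 2163 CPM at day 22, without overlap (2.68 ± 0.95, edgeR adjusted p = 0.0703). The 9 immunoglobulin and J chain genes were all higher without overlap (25.2% of all genes), and *Pigr* was lower (23% of all genes), at 1656 to 1775 CPM against 2681 to 4196 CPM. The count of 5 rested on the form of the fit and on individual samples. With untreated samples split by diet days 1 member was called, and 3 were with replicate number as a block or without the low-count filter. With only the groups compared and no ribosomal term 10 were called, *Pigr* as lower. The count was 1 or 2 when any one of 6 of the 7 samples was left out and 4 without GW3965 day 22 replicate 3.

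Genes of plasma cells and of class switching rose beside them at day 22 of GW3965. Of 16 plasma cell genes 8 rose, among them *Mzb1* (a chaperone of IgM and IgA assembly, 3.79), *Eaf2* (3.42), *Prdm1* (2.25) and *Fkbp11* (1.74), with a median of 1.77 beside 0.02 over all genes. Of 15 class switch and survival genes 7 rose, among them *Il21* (8.77), *Il10* (4.63) and *Cd40* (2.68). *Il21* was at 0 in each GW3965 day 0 sample, so its fitted value is no measured fold. Of 9 immunoglobulin receptors 6 rose, led by *Fcgr4* (4.41), and of 11 homing genes 3 rose (*Cxcr4* 2.12, *Ccr9* 1.43 and *Ccr10*, the receptor of IgA plasma cells for mucosal chemokines, 2.70). Of 4 other immunoglobulin constant genes 3 rose, the λ genes *Iglc3* (4.06), *Iglc2* (3.03) and *Iglc1* (2.89). T cell markers (7 of 7) and myeloid markers (5 of 7) rose too, while edgeR called 0 of 10 B cell markers, with 7 at an unadjusted p under 0.05, 2 by DESeq2 and a median of 1.68.

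At day 70 of GW3965, 7 of 10 genes were higher than at day 0 (21.9% of all genes were called, and 14.4% as higher). *Ighg1* was at 0.563 to 3.43 CPM at day 0 and at 123, 85.5 and 24.3 CPM at day 70, a log2 fold change of 5.99 ± 1.39 (edgeR adjusted p = 0.00468). *Ighg2b* rose by 5.25 ± 1.13, *Ighg2c* by 4.35 ± 1.31, *Igha* by 3.31 ± 0.98, *Igkc* by 3.13 ± 0.90, *Jchain* by 3.08 ± 0.88 and *Ighm* by 2.23 ± 0.64 (edgeR adjusted p 0.00285 to 0.0222). All of these except *Jchain* were without overlap, 6 of 10, where 18.3% of all genes were higher in this way. *Ighd* was not called (0.59 ± 0.75), and its value was -1.28 without replicate 2 of day 70. *Ighg3* was not called either (2.83 ± 1.17, edgeR adjusted p = 0.0892). Without replicate 2 of day 70, 4 members were called, but only 3 of them were among the 7 above, and *Pigr* was called as lower. Without the day 0 sample of conflicting labels, 3 of the 7 were called. Smooth muscle markers fell beside them (3 of 8), and 8 of 8 stratified epithelium markers rose, with a median of 12.3. T cell markers (5 of 7), myeloid markers (5 of 7) and immunoglobulin receptors (5 of 9) rose too, and 0 of 10 B cell markers were called by edgeR (0 at an unadjusted p under 0.05, and 0 by DESeq2). Their part in the result was not tested. Of 16 plasma cell genes 5 rose (*Prdm1* 2.95, *Sdc1* 1.48, *Eaf2* 1.76 and *Mzb1* 2.58 among them), and *Sdc1* is also made by epithelium.

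On the standard diet edgeR called 2 members at day 70, both lower, and DESeq2 called 3 as lower and 1 as higher. Of the 9 immunoglobulin and J chain genes, 3 gave log2 fold changes above 0 and 6 below, from -4.22 to 3.05. *Ighg2c* was at 0.158, 114 and 1.35 CPM (replicates 1 to 3), against 0.425 to 8.55 CPM at day 0. *Ighg3* was at 0, 2.05 and 0.127 CPM, against 0.142 to 11.9 CPM at day 0. At day 70, *Ighm* fell by 2.16 (SE 0.66) and *Ighd* fell by 4.22 (SE 0.91) on the log2 scale (edgeR adjusted p = 0.0165 and 0.00192). That is 2 of 10 genes, where 33.2% of all genes were called and 15.1% as lower. *Ighd* was at 9.02 to 34.0 CPM at day 0 and at or under 1.05 CPM at day 70, without overlap, as was *Pigr* (19.3% of all genes were lower in this way), whereas the *Ighm* groups overlapped through 41.5 CPM in day 70 replicate 2. B cell markers fell with them, 10 of 10, among them *Cr2* (-6.05), *Pax5* (-5.71) and *Ms4a1* (-3.75), from a sum of 50.2 to 269 CPM at day 0. *Fcmr* fell by 4.82, and 8 of 8 smooth muscle markers fell (median -2.56) while 8 of 8 stratified epithelium markers rose (median 10.6). *Igha* was at -0.93 ± 0.92 and *Jchain* at -0.90 ± 0.83. Both turned positive, to 0.35 and 0.29, without the day 0 sample of 43 diet days, replicate 1. Plasma cell genes were split, with 3 of 16 higher (*Sdc1* 1.84, *Fkbp11* 1.23 and *Prdm1* 1.16) and 1 lower (*Slamf7* -1.63). *Sdc1*, which epithelium also makes, was at 505 to 737 CPM at day 70 and 99.6 to 218 CPM at day 0. *Mzb1* was not called, at 2.58, 14.1 and 6.09 CPM at day 70 and 3.49 to 38.6 CPM at day 0. Without that same day 0 sample *Ighd* was still called, and *Ighm* had an edgeR adjusted p of 0.0863.

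At day 22 of the standard diet edgeR called 0 members, with 3 at an unadjusted p under 0.05 (20.9% of all genes) and 0 by DESeq2, where 7.73% of all genes were called. Their fold changes were 1.93 ± 0.75 for *Ighd*, 2.29 ± 1.00 for *Ighg2b* and 2.71 ± 1.24 for *Ighg2c*. These genes and *Ighg3* were without overlap, 4 of 10 higher, where 15.9% of all genes were. Of 16 plasma cell genes 2 rose there (*Prdm1* 1.43 and *Eaf2* 1.86), of 15 class switch genes 6, and of 11 homing genes 4, *Cxcr4* (2.26) among them. T cell markers (4 of 7), myeloid markers (5 of 7) and immunoglobulin receptors (5 of 9) rose too, while edgeR called 0 of 10 B cell markers, with 9 at an unadjusted p under 0.05 and 6 by DESeq2. Their part in these values was not tested.

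As a share of counts, mean antibody RNA was highest at day 43 on either diet, and the test there depended on the ribosomal term of the fit. In TPM the order of *Igha* was another, since its mean was 3576 at day 22 and 3054 at day 43 of the standard diet, and 3448 at day 43 and 5331 at day 70 of GW3965, with groups that overlapped. The 8 constant region genes took 0.336%, 1.33% and 1.62% of the counts in the standard diet samples and 0.903%, 1.55% and 0.823% in the GW3965 samples. *Ighg2b* was at 466, 594 and 1987 CPM on the standard diet, against 2.60 to 72.5 CPM at day 0. On GW3965 it was at 759, 1846 and 390 CPM. With the ribosomal percentage in the model, which at day 43 lay above every day 0 value, edgeR called 0 members on the standard diet (0 at an unadjusted p under 0.05, beside 8.02% of all genes, 0 by DESeq2, and 0% of all genes called). It called 0 members on GW3965 (5 at an unadjusted p under 0.05, beside 13.6% of all genes, 1 by DESeq2, and 0.938% of all genes called). Without that term, 8 members were called on the standard diet and 9 on GW3965. The day and the ribosomal percentage cannot be told apart. By range alone, 6 of 10 genes on the standard diet were higher than at day 0 without overlap (25.6% of all genes) and *Pigr* was lower (22.8%). On GW3965, 8 of 10 were higher (30.8%) and *Pigr* was lower (26.6%). Myeloid markers were highest in these samples, summing to 2297 to 16247 CPM beside 297 to 603 CPM at day 0.

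The difference of the diet effect between days was tested as an interaction with day 0. At day 70 it was 4.40 ± 0.93 for *Ighm*, 4.81 ± 1.15 for *Ighd*, 4.24 ± 1.37 for *Igha* and 5.84 ± 1.69 for *Ighg3*, and edgeR called 0 members (adjusted p 0.145 to 0.219 for these). At an unadjusted p under 0.05 there were 8 of 10, where 12.7% of all genes passed, and DESeq2 called 6. EdgeR called 0% of all genes there. At days 22 and 43 edgeR and DESeq2 called 0 members (edgeR called 0.0234% and 0% of all genes), with 0 and 1 at an unadjusted p under 0.05, beside 6.24% and 4.37% of all genes.

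IgG made up a larger share of the heavy chains in every day 43 sample than in any day 0 sample of the same diet, although no share passed the adjustment. Shares were taken within a sample, over counts per effective length, and compared by two-sided exact permutation tests with adjustment over 40 comparisons of isotype shares. These tests allow no p below 0.1 for 3 samples against 3 or below 0.02857 for 3 against 4. The IgG share was 2.62% ± 1.99 (SD, n = 4) at day 0 of the standard diet, and then 8.49% ± 2.13, 25.96% ± 11.65 and 6.51% ± 7.70 on days 22, 43 and 70 (n = 3 each). At day 43 it was 32.2%, 12.5% and 33.2%, each above the highest day 0 sample at 5.51% (exact permutation p = 0.02857, adjusted 0.208). The day 22 samples of that diet also lay above it (exact permutation p = 0.05714, adjusted 0.208). On GW3965 the IgG share was 2.92% ± 1.82 at day 0 and then 9.19% ± 2.05, 23.9% ± 5.41 and 11.35% ± 6.05 on days 22, 43 and 70. Day 22 and day 43 lay above day 0 without overlap (exact permutation p = 0.02857, adjusted 0.208 for each). The *Igha* share was lower in return, 91.0% ± 4.01 at day 0 against 68.6% ± 13.75 at day 43 on the standard diet (exact permutation p = 0.02857, adjusted 0.208) and 85.1% ± 6.33 against 72.25% ± 5.09 on GW3965 (exact permutation p = 0.0857, adjusted 0.264).

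**Figure D3:**
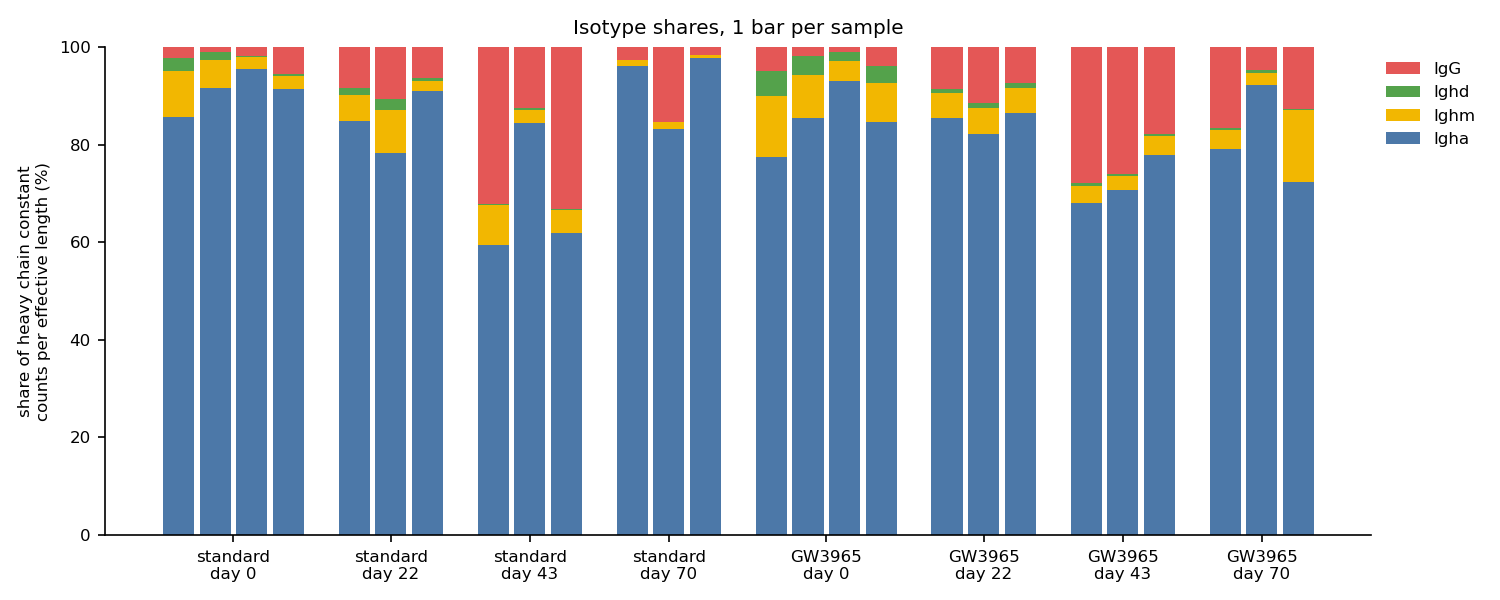
Share of *Igha*, *Ighm*, *Ighd* and the IgG genes together in the heavy chain constant counts per effective length (y axis, %), with 1 bar per sample grouped by diet and day (x axis). *Igha* fills most of every bar, from 59.5% to 97.8%, and the IgG part is widest at day 43, up to 33.2%.

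Within IgG, *Ighg2b* held the largest share in 24 of the 26 samples and *Ighg2c* in the other 2. The *Ighg2b* share of IgG was 54.9% ± 12.1 to 63.1% ± 8.38 at day 43 and reached 81.2% ± 13.2 at day 22 of GW3965. *Ighg3*, which is typical of responses without T cell help, was 14.3% ± 11.4 of IgG at day 0 and 0.53% ± 0.47 at day 70 of the standard diet, and 6.26% ± 1.99 and 1.22% ± 0.62 on GW3965. These shares of IgG were not tested, and those of *Ighg3* rest on low values. It was at 0.142 to 11.9 CPM at day 0 and at 0 to 2.05 CPM at day 70 of the standard diet. On GW3965 it was at 0.346 to 1.04 CPM and 0.671 to 7.51 CPM. The IgG genes are close paralogues, and how their shared reads were divided is uncertain.

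The *Ighm* share at day 70 was 1.12%, 1.44% and 0.596% on the standard diet and 3.72%, 2.42% and 14.9% on GW3965, without overlap (exact permutation p = 0.1, the smallest possible, adjusted 0.286). On GW3965 the *Ighd* share was 3.58% ± 1.37 at day 0 and lower without overlap at days 22, 43 and 70, at 0.93% ± 0.09, 0.41% ± 0.05 and 0.39% ± 0.20 (exact permutation p = 0.0571, adjusted 0.208 for each). The κ share of the light chains lay between 84.6% and 98.2%. In untreated GW3965 samples it was 92.1% ± 0.73, against 89.5% ± 2.56 on day 22 and 97.05% ± 1.03 on day 70, both without overlap (exact permutation p = 0.02857, adjusted 0.143 for each).

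The form of *Ighm* also differed between groups by range, although no comparison passed the adjustment. The membrane form made up 79.3% to 85.2% of *Ighm* in the 4 GW3965 day 0 samples and 37.2% to 77.4% in the 4 standard diet samples, without overlap (exact permutation p = 0.02857, adjusted 0.286 over 70 comparisons of form shares). At day 22 the order was the other way, at 30.7%, 33.2% and 37.6% on GW3965 and 58.1%, 45.9% and 62.85% on the standard diet (exact permutation p = 0.1, adjusted 0.421). At day 43 the membrane share was 21.4% ± 2.54 on GW3965 and 10.35% ± 10.1 on the standard diet. The 3 standard diet samples of day 43 were also below day 0 without overlap (exact permutation p = 0.02857, adjusted 0.286). At day 70 it was 20.1%, 36.9% and 4.48% on GW3965, and GW3965 samples of days 22, 43 and 70 were all below day 0 (exact permutation p = 0.02857, adjusted 0.286 for each). On the standard diet it was 49.0%, 6.49% and 50.6% at day 70, overlapping day 0 (exact permutation p = 0.343, adjusted 0.667). The GW3965 sample with 4.48%, replicate 3, was the one in which *Ighm* reached 14.9% of the heavy chains. For IgA and IgD 1 form prevailed throughout. *Igha* was 0.12% to 0.62% membrane form in all 26 samples, whereas *Ighd* was 56.3% to 100% membrane form. RIN was 2.6 to 9.3 in the day 43 samples and 9.1 or more elsewhere, and its part in the form shares was not tested.

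**Figure D4:**
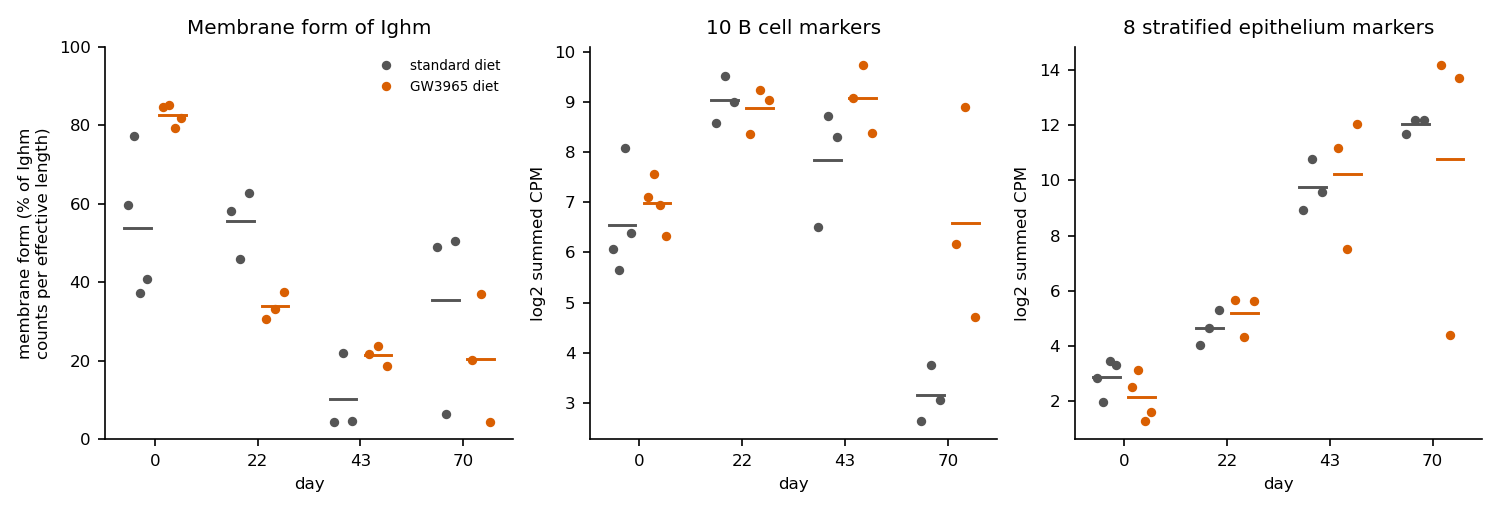
Membrane form as a share of *Ighm* (left, %), and log2 summed CPM of 10 B cell markers (middle) and 8 stratified epithelium markers (right) on the y axes against day, with 1 point per sample and bars at the group means (grey, standard diet and orange, GW3965). The membrane share of the 4 GW3965 day 0 samples is 79.3% to 85.2%, and the B cell sums of the standard diet samples at day 70, 6.20 to 13.6 CPM, are the lowest of all.

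The J chain was compared with *Igha* as a ratio of TPM within a sample, as a description. There were 24.1 to 41.9 *Jchain* TPM per 100 *Igha* TPM at day 0 of the standard diet and 25.6 to 29.0 on GW3965. At day 22 the ratio was 34.0, 54.6 and 31.4 on the standard diet, overlapping day 0, and 33.7, 38.6 and 83.2 on GW3965, all above day 0. At day 43 the ratio was 294, 64.5 and 165 on the standard diet and 102, 103 and 54.9 on GW3965, all above the day 0 samples, with the lowest of either diet below the highest day 22 sample of GW3965. The highest ratio was in the sample of RIN 2.6. The day 70 ratio was 22.6, 30.6 and 32.1 on the standard diet and 16.7, 17.8 and 20.9 on GW3965, where the GW3965 samples lay below all others.

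*Pigr* was highest in untreated GW3965 colon and lowest at day 43 of the standard diet. Untreated samples held 3276 ± 649 CPM (SD) on GW3965 and 2100 ± 129 CPM on the standard diet. Next in order were the standard diet of day 22 with 1938 ± 1009 CPM, GW3965 of day 70 with 1882 ± 1669 CPM and GW3965 of day 22 with 1703 ± 63.6 CPM. The lowest groups were the standard diet of day 70 with 1176 ± 248 CPM, GW3965 of day 43 with 1019 ± 132 CPM and the standard diet of day 43 with 581 ± 179 CPM. The 4 groups between 1703 and 2100 CPM lay within 1 SD of the more variable ones among them. With all groups and the ribosomal term in the fit, edgeR did not call *Pigr* in any comparison, but alternatives did. With only the groups compared and no ribosomal term it was lower than at day 0 at day 22 of GW3965 (log2 fold change -0.94, edgeR adjusted p = 0.00447). The same held at day 70 of the standard diet (-0.88, edgeR adjusted p = 0.0106) and at day 43 of the standard diet (-1.87) and GW3965 (-1.72, edgeR adjusted p = 0.000754 and 0.000567). With all groups kept and only the ribosomal term dropped, *Pigr* was also called at day 43 on either diet. At day 43 its log2 fold change against day 0 was -1.13 ± 0.84 on the standard diet and -1.20 ± 0.66 on GW3965, and at day 70 it was -0.83 ± 0.40 and -0.92 ± 0.41 (edgeR adjusted p 0.112 to 0.858). At day 70 of GW3965, replicates 1 and 3 were at 725 and 1125 CPM and replicate 2 at 3796 CPM, and without replicate 2 the value was -1.89 (edgeR adjusted p = 0.000358).

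Since *Pigr* is made by epithelium, it was also set against the mean log2 CPM of 12 epithelium markers. On this scale it was 2.07 ± 0.34 at day 0 of the standard diet, and lower without overlap on days 43 and 70, with 0.84 ± 0.54 and 0.91 ± 0.47 (exact permutation p = 0.02857, adjusted 0.0952 for each). On GW3965 it was 2.68 ± 0.50 at day 0 and then 1.83 ± 0.07, 1.31 ± 0.25 and 2.04 ± 0.80 on days 22, 43 and 70. Days 22 and 43 were below day 0 without overlap (exact permutation p = 0.0571 and 0.02857, adjusted 0.143 and 0.0952). The diet difference was 0.61 at day 0 and 1.13 at day 70, each with overlapping groups (exact permutation p = 0.114 and 0.2, adjusted 0.229 and 0.333).

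**Figure D5:**
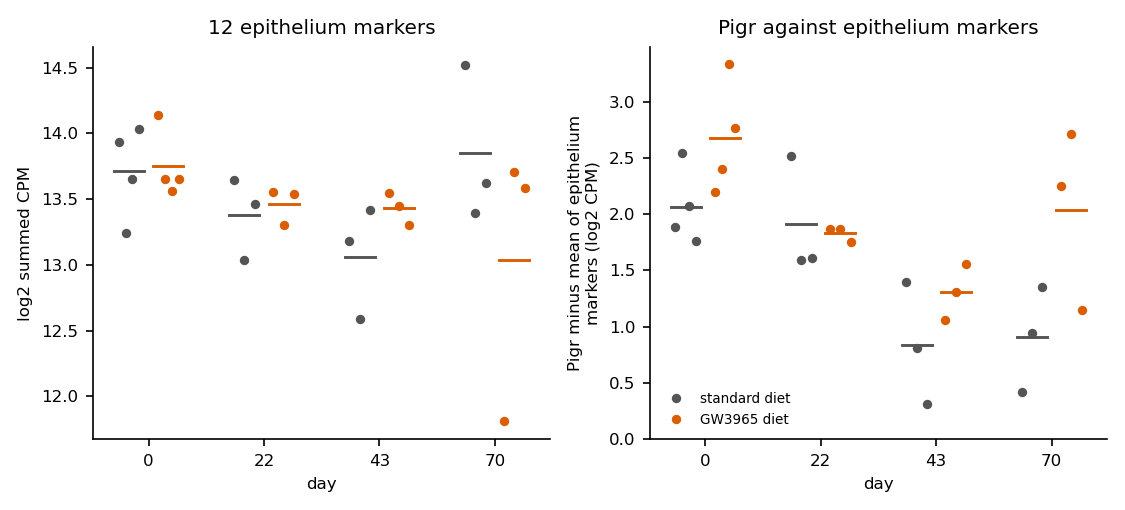
Log2 summed CPM of 12 epithelium markers (left) and *Pigr* minus the mean log2 CPM of these markers (right) on the y axes against day, with 1 point per sample and bars at the group means (grey, standard diet and orange, GW3965). The difference is lowest at day 43 of the standard diet, 0.84 on average, and GW3965 day 70 replicate 1 has the lowest marker sum.

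A list of *Pigr* inducers, with receptors and signalling genes among them, had genes that rose at days 22 and 70. EdgeR did not call *Pigr* there with all groups and the ribosomal term in the fit. The relation of the list to *Pigr* was not tested. Of the 11 listed genes, 5 rose at day 22 of the standard diet (*Tnf* 3.69, *Il1b* 5.61, *Il17a* 6.84 and *Il4ra* 1.77 among them) and 7 at day 22 of GW3965 (*Tnf* 4.40, *Il1b* 5.13, *Il4ra* 1.86 and *Irf1* 1.83 among them). At day 70, 5 rose on either diet. Over all genes tested, 7.73% and 12.6% were called in the comparisons of day 22 on the standard diet and on GW3965, and 33.2% and 21.9% in those of day 70. At day 43 edgeR called 0 of the 11 on the standard diet (5 at an unadjusted p under 0.05, and 1 by DESeq2) and 0 on GW3965 (6 at an unadjusted p under 0.05, and 3 by DESeq2). The fitted values there were of similar size, at 3.75 and 2.94 for *Tnf* and 2.27 and 1.99 for *Il4ra* on the standard diet and GW3965. *Il17a* was at 0 in 3 of the 4 standard diet samples of day 0, so its fitted value is no measured fold. *Ccl28*, the epithelial chemokine for IgA plasma cells, fell by 1.68 at day 70 of the standard diet and by 1.56 on GW3965.

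Across the 26 samples, which share groups and depth, the genes outside the immunoglobulin loci whose log2 CPM was most like *Igha* were *Ccr10* (Pearson r = 0.96), *Derl3* (0.938), *Ly6c2* (0.927), *Jchain* (0.908) and *Mzb1* (0.889). For *Ighm* they were *Skap1* (0.923), *Ptprc* (0.913), *Btk* (0.91), *Plxnc1* (0.909) and *Il4i1* (0.901). For *Pigr* they were *A1cf* (0.939), *Mgat3* (0.923), *Golph3l* (0.923), *Slc10a5* (0.921) and *Plekha6* (0.918).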

How the data were processed

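Bulk poly(A) RNA-seq of 26 colon samples in 8 groups of diet and day was used. The authors made the deposited estimated counts and TPM values per transcript with Kallisto on the GRCm38 cDNA (version and library strand are not given in the sources used here). Without strand, reads of genes that overlap on opposite strands cannot be told apart. Of 119414 transcripts, 116728 (97.8%) matched GENCODE vM21, and 0.615% to 0.999% of a sample's counts did not. Counts were summed by gene and rounded. Genes were filtered with filterByExpr and scaled by TMM, and edgeR 4.0.16 (R 4.3.3) quasi-likelihood F-tests were fitted over all samples, with the groups and the share of counts (%) taken by 88 ribosomal protein genes as terms. P-values were Benjamini-Hochberg adjusted over 17063 genes at 0.05. Shares were compared by exact permutation tests. DESeq2 1.42.0, other scalings, no filter, no ribosomal term, other groupings and each sample left out were alternatives. The fit was tested on simulated data.

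The members and the gene lists were chosen with earlier results of these data known. Named were all members, up to 4 genes per list with the smallest p among those called, and the 5 genes most like *Igha*, *Ighm* and *Pigr*. Some genes that this rule names are not reported here. No gene's values were copied from the study's own comparisons. The spatial and single-cell data of the study were not analysed here.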

Additional observations from a re-analysis of the deposited data

Results flagged for a closer look

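In groups of 4 samples, the gap of the outermost sample was compared with Dixon's 95% critical value in 36 tests, and 2 exceeded it, where chance alone passes about 5% of such groups. *Ighd* in the standard diet day 0 sample of 43 diet days, replicate 1, was at 33.96 CPM, and the nearest of the other 3 was at 12.53 CPM (gap over range 0.859). The κ share of the standard diet day 0 sample of 22 diet days, replicate 1, was 84.58%, and the nearest of the other 3 was at 95.2% (0.864). The membrane share of *Ighm* differed between the diets in opposite directions, by 29.01 percentage points at day 0 and by -21.74 at day 22, without overlap at either day. That difference between the days was not tested.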

How the results depend on the processing

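Replicate numbers did not pair the samples (mean correlation of same-numbered deviations -0.0662 over 13 pairs, -0.37 to 0.201), and with the replicate block 3 members were called on GW3965 day 22. Without the ribosomal term the members called were 8 at day 43 of the standard diet and 9 on GW3965. With only the groups compared and that term dropped as well, they were 0 for diet at day 70. In the same setting they were 2 and 7 at days 22 and 43 of the standard diet, and 10 and 9 at days 22 and 43 of GW3965. With untreated samples split by diet days they were 1 and 4 at days 22 and 70 of the standard diet and 1 at day 22 of GW3965. DESeq2 called 4 at day 70 of the standard diet, 1 at day 43 of GW3965 and 6 for the interaction at day 70. Without the low-count filter day 22 of GW3965 had 3. Of the alternatives chosen after seeing the data, leaving out day 43 gave 1 there, leaving out the RIN 2.6 and conflicting-label samples gave 2, and GW3965 day 70 as replicate 2 alone gave 5 for its interaction. That sample was chosen after its values were seen and is assumed to vary like the other groups, so this count does not describe the group. Leaving out each sample gave 0 to 2 members for diet at day 70, 1 to 3 at day 70 of the standard diet, 1 to 4 and 3 to 7 at days 22 and 70 of GW3965, and 0 to 4 for the interaction at day 70.

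The log2 fold change of *Ighg2c* for diet at day 70 was -0.10 without the ribosomal term and -0.086 in the groups compared alone, also without that term. Leaving out each sample it was -0.087 to 6.02. The corresponding ranges were -0.38 to 0.96 for *Pigr* in that comparison, -1.71 to 0.35 for *Igha* and -1.67 to 0.29 for *Jchain* at day 70 of the standard diet, and -1.28 to 1.19 for *Ighd* at day 70 of GW3965, negative without replicate 2. With replicate 2 alone, *Pigr* at day 70 of GW3965 was 0.090. The causes were not tested. The shares kept their direction in the alternatives run, and since none passed the adjustment at the outset, no call could be lost. Groups of 3 or 4 samples and exact tests that cannot go below 0.1 or 0.02857 limit all comparisons.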
